A study of Mus musculus with 22 samples.

Results

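The regions described here carry an active or a repressive histone mark in 1 line of mouse induced pluripotent stem (iPS) cells, called C2. A region was kept where a peak of H3K27ac, or of H3K9me3, was called in both C2 libraries of that mark on chromosomes 1 to 19, and its extent is the union of the overlapping peaks. There were 50848 H3K27ac regions and 34205 H3K9me3 regions, 85053 of the 300889 regions found in the same way in all 3 iPS lines of the study. Of them, 1511 H3K27ac regions and 1538 H3K9me3 regions overlapped a region of the other mark.

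The study compared iPS cells made from C57BL/6 embryonic fibroblasts with different sets of transduced factors by chromatin immunoprecipitation and sequencing. C2 cells had received ZFATF1, ZFATF2 and ZFATF3, which are artificial zinc-finger transcription factors, together with Sox2, Klf4 and c-Myc. The 2 other lines are C3, given ZFATF1, ZFATF2, ZFATF4 and the same 3 natural factors, and OSKM, given Oct4 and those 3. All iPS cells carry an Oct4-MerCreMer; Tomato/GFP reporter, were treated with 100 nM 4-hydroxytamoxifen and were fixed with 1.5% formaldehyde. Each line has 2 libraries per mark. The sources used here do not say whether the libraries of a pair came from separate clones or cultures, so any spread or p-value measures only these samples and may be technical. Peaks of the HA tag on the artificial factors, from C2 cells at day 20 of reprogramming and from cells labelled Empty (Sox2, Klf4 and c-Myc without an artificial factor, a control for the HA antibody), were used as a further readout.

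H3K27ac is acetylation of lysine 27 of histone H3. Acetyltransferases such as p300 and CBP deposit it at active promoters and enhancers. H3K9me3 is trimethylation of lysine 9, written by SETDB1 and the SUV39H enzymes, bound by HP1 proteins and found at silenced repeats, at clusters of zinc finger genes and at the silenced alleles of imprinted genes. In pluripotent cells, KRAB zinc finger proteins bring SETDB1 to endogenous retroviruses through TRIM28. Loci that carry these marks are thus known to have mostly one or the other. Imprinted genes, where the 2 parental alleles differ, are a textbook exception.

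Promoters show how the marks divide gene starts and where both are found. Of 31396 listed promoters (250 bases before to 50 after each listed gene start, from RefSeq on GRCm38.p6), 11476 overlapped an H3K27ac region only, 279 an H3K9me3 region only and 14 a region of each mark. The first 4 sequences below belong to the 14, the next 3 to promoters with H3K9me3 only at imprinted (Plagl1, Nnat) or germline (Slc25a31) genes, and the last 2 to promoters with H3K27ac only. They are shown for the contrast in CpG dinucleotides, which are in capitals. All are written 5′ to 3′ on the strand of the gene, and were chosen after their values were seen.
Pogk, chr1:166409779-166410078, minus strand, both marks: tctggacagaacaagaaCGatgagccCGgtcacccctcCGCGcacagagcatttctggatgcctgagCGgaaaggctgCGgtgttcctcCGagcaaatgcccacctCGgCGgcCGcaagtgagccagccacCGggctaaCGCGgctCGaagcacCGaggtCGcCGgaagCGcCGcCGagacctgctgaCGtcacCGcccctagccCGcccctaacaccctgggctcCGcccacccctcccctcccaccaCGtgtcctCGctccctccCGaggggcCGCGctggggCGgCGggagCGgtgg
Wiz, chr17:32369373-32369672, minus strand, both marks: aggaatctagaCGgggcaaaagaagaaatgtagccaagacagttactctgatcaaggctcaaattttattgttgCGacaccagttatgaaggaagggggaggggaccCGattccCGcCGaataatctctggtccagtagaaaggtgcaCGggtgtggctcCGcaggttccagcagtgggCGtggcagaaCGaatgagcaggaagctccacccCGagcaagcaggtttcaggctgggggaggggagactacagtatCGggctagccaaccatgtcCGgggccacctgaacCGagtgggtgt
Tasor2, chr13:3611059-3611358, minus strand, both marks: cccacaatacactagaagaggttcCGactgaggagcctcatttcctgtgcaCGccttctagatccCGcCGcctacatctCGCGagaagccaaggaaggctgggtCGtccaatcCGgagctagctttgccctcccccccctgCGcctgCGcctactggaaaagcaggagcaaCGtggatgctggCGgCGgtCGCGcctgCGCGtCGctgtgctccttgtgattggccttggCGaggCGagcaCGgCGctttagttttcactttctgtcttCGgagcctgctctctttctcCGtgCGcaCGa
Pou5f1, chr17:35505782-35506081, plus strand, both marks: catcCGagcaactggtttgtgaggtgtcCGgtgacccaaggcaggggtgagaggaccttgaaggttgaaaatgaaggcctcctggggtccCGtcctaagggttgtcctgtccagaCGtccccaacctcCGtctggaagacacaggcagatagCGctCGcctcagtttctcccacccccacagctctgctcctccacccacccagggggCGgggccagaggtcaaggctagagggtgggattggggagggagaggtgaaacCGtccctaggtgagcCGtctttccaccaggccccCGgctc
Plagl1, chr10:13090582-13090881, plus strand, H3K9me3 only: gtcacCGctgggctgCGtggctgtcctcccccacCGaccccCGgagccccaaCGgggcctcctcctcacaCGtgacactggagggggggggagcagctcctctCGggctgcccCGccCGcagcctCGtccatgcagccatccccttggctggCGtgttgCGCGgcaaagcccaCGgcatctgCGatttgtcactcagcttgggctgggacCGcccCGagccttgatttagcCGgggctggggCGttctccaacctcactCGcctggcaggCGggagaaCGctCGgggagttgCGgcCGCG
Nnat, chr2:157559828-157560127, plus strand, H3K9me3 only: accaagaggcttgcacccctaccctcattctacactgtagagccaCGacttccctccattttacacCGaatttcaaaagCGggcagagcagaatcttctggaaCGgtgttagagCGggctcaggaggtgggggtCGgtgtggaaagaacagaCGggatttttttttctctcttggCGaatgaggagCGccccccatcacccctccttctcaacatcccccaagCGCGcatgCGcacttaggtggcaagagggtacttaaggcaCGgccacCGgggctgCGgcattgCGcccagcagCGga
Slc25a31, chr3:40708621-40708920, plus strand, H3K9me3 only: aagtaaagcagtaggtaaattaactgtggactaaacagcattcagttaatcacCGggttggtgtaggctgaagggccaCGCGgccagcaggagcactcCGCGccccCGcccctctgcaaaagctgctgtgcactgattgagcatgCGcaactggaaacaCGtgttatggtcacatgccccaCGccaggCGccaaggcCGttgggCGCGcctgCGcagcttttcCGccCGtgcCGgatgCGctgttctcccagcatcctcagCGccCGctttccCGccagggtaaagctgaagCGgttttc
Brd2, chr17:34122558-34122857, minus strand, H3K27ac only: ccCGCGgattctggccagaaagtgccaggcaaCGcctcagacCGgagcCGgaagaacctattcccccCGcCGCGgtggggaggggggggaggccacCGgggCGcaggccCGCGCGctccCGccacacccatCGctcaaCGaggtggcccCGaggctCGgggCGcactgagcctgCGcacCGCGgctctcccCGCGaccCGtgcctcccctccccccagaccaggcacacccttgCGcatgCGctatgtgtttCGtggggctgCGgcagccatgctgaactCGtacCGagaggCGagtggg
Nanog, chr6:122707239-122707538, plus strand, H3K27ac only: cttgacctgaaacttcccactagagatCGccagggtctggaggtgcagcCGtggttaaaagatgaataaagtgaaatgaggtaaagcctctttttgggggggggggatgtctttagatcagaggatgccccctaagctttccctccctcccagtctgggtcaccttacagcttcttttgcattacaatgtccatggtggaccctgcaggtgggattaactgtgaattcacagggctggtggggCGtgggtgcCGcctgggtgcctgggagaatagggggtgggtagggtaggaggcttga

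Promoters with H3K27ac only were rich in CpG, with a median of 20 per 300 bases (quartiles 12 and 28) and a median GC content of 60.7%. Promoters with H3K9me3 only had a median of 5 CpG (quartiles 2 and 10) and 49.3% GC, close to the 4 CpG and 49.0% of the 19627 promoters with neither mark. The printed H3K9me3 promoters are therefore not typical of their class: Plagl1 held 26 CpG, Slc25a31 22 and Nnat 17, while Nanog, with H3K27ac, held 4. At least 10 CpG were present in 80.4% of promoters with H3K27ac only, in 26.2% of those with H3K9me3 only and in 44.0% of all promoters.

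The 14 promoters with both marks had a median of 18 CpG (quartiles 11.25 and 25). Each was overlapped by a region of each mark, but at Wiz and Ttll4 these regions did not overlap each other. Their genes included Pogk, which encodes a KRAB-domain protein, Wiz, a zinc finger partner of the H3K9 methyltransferases G9a and GLP, Tasor2, a paralogue of the HUSH complex subunit TASOR, and Pou5f1, which encodes Oct4. The others were Ttll4, Eif5a2, Phldb3, Ptprs and 6 loci known by database symbols only. Of the motifs searched on both strands, GGGCGG (the GC box) was found in 60.9% of promoters with H3K27ac only, 16.8% of those with H3K9me3 only and 36.0% of all. CACGTG (an E box) was found in 10.97%, 3.94% and 7.14%. TGCCGC, the core letters bound by the imprinting factor ZFP57, was in 18.4%, 11.5% and 11.6%, and CCAAT was in 36.5%, 47.7% and 37.3%. GC content differs between these classes in the same direction as the first 3 motifs, and its part in these shares was not tested. Promoters with neither mark, at 49.0% GC, had GGGCGG in 21.7%, CACGTG in 4.94%, TGCCGC in 7.65% and CCAAT in 37.6%.

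Depth was between 29264090 and 46304808 tags kept per C2 library, after a fraction of 0.11 to 0.31 had been removed as redundant. Peaks on chromosomes 1 to 19 numbered 114119 and 75329 for H3K27ac (replicates 1 and 2) and 64440 and 59699 for H3K9me3. The replicates of H3K27ac were uneven: 47.6% of peaks of replicate 1 overlapped a peak of replicate 2, while 91.0% of peaks of replicate 2 overlapped one of replicate 1. For H3K9me3 these shares were 67.7% and 73.2%. The first replicates of both C2 marks were called against the same input library, and so were the second replicates, which OSKM also shares, while C3 has inputs of its own. As a check of the label, all 16 pluripotency markers had an H3K27ac region within 2500 bp, with a median fold enrichment of 7.17, against 1 of 15 fibroblast markers (Fbn1) and 1 of 6 neural markers (Pax6), beside 64.6% of protein-coding genes. In the longer lists described further on, 7 of 25 fibroblast and 5 of 15 neuroectoderm genes had one. The same held for 9 of 10 primitive endoderm markers, at a median of 5.51, and 6 of 8 trophoblast markers, at 5.42. Fold enrichment is the authors' value over the local background, taken as the highest peak of each library in a region.

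H3K27ac peaks were wider than H3K9me3 peaks in the middle of the distribution, while more H3K9me3 regions reached 5000 bp. The median peak width was 534 and 486 bp in the H3K27ac libraries and 396 and 446 bp in the H3K9me3 libraries, so the libraries of the 2 marks did not overlap. The mean was 510 ± 33.9 bp against 421 ± 35.4 bp (SD, n = 2), a difference of -89 bp (H3K9me3 minus H3K27ac) with p = 0.333 in an exact two-sided permutation test, the smallest p that 2 libraries against 2 allow. Over the 3 lines, the mean was 572 ± 53.3 bp for H3K27ac and 450.5 ± 32.25 bp for H3K9me3 (SD, n = 6), exact permutation p = 0.00433 and 0.00649 adjusted over 3 measures. Libraries of 1 line and libraries sharing an input are not fully independent in that test. The fragment length estimated in peak calling was 227 and 257 bp in the C2 H3K27ac libraries (replicates 1 and 2) and 193 and 233 bp in the H3K9me3 libraries. Both marks were called with broad calling off. The part of these settings in the widths was not tested.

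**Figure D1:**
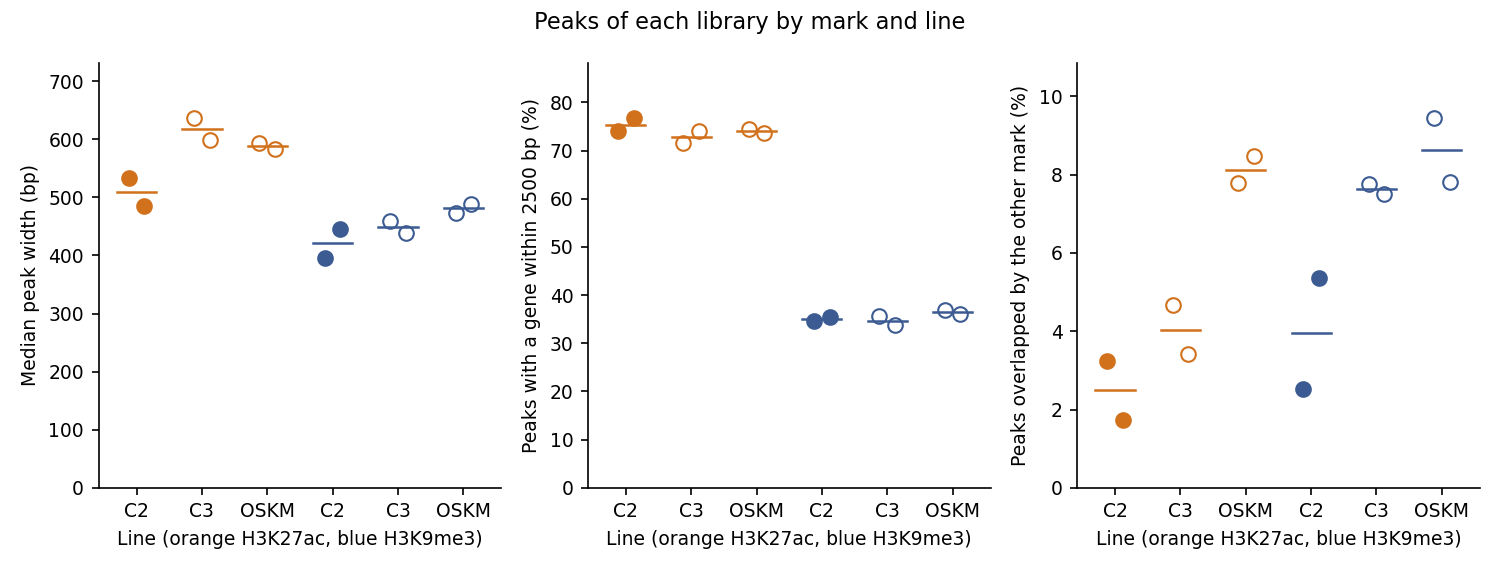
Median peak width in bp (left), percent of peaks with an annotated gene within 2500 bp (middle) and percent of peaks overlapped by a region of the other mark in the same line (right) for each of the 12 histone libraries. Points are libraries, short lines are means of 2, filled points are C2; gene proximity separated the marks in every line, from 71.7% upwards for H3K27ac and up to 37.0% for H3K9me3.

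As regions, merged over both libraries, H3K27ac had a median width of 1050 bp (quartiles 676 and 1673) and H3K9me3 of 938 bp (quartiles 567 and 1668). The order turned in the upper tail, where the 95th percentile was 3550 bp for H3K27ac and 4865 bp for H3K9me3. With only peaks at a −log10 q-value of at least 5 kept, the median widths were nearly equal, 1162 and 1156 bp. Regions of at least 5000 bp made up 2.03% of H3K27ac regions (1032) and 4.68% of H3K9me3 regions (1602), and held 10.0% and 21.8% of the bases covered by each mark. At the far end the counts were 82 H3K27ac and 71 H3K9me3 regions of at least 10000 bp, and the widest region of all was of H3K27ac. H3K27ac covered 71.1 Mb and H3K9me3 50.8 Mb. Enrichment went with width in both marks, from a median fold of 3.62 in the narrowest width class of H3K27ac regions to 7.725 in those over 10000 bp, and from 3.77 to 8.62 for H3K9me3. The fold of a region is that of its highest peak, and a wider region can hold more peaks. Part of this rise can thus follow by construction, and how much was not tested.

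Among all regions, 67.4% for H3K27ac and 30.0% for H3K9me3 overlapped a gene, and the widest are set beside these shares. Of the 10 widest H3K27ac regions, from 16042 to 23686 bp, 8 overlapped an annotated gene, among them Tns3 (20745 bp), Fem1b (18629 bp), Mapt (16685 bp) and Etv5, an ETS factor of the naive state (16074 bp). A further one, of 20103 bp, lay 6703 bp from Klf5, which encodes a pluripotency factor. Of the 10 widest H3K9me3 regions, from 12612 to 22516 bp, 2 overlapped a gene: Flg2 (18695 bp) and Lrrc8d (14417 bp). Lrrc8d was also the only one of the 20 that overlapped the other mark. Fold enrichment of the H3K9me3 region at Flg2, a gene of the skin barrier, was 11.4 and 7.75 in replicates 1 and 2.

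**Figure D2:**
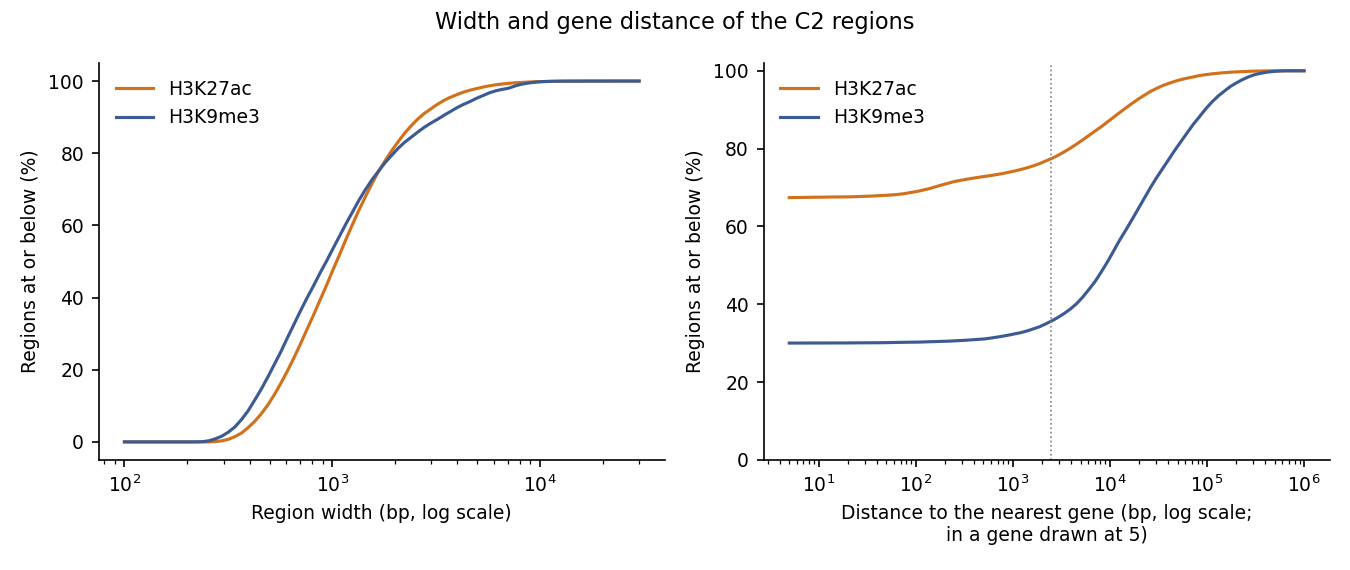
Cumulative percent of the C2 regions of each mark by width in bp (left) and by distance to the nearest annotated gene in bp (right), both on log axes; regions inside a gene are drawn at 5 bp and the dotted line marks 2500 bp. The width curves cross in the upper tail, and the distance curves stay apart, 67.4% of H3K27ac and 30.0% of H3K9me3 regions lying inside a gene.

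The distance to genes separated the marks most clearly. A gene lay within 2500 bp of 74.1% and 76.7% of H3K27ac peaks in replicates 1 and 2, and of 34.7% and 35.5% of H3K9me3 peaks. The means were 75.4 ± 1.815% and 35.1 ± 0.62% (SD, n = 2), a difference of -40.3 percentage points with exact permutation p = 0.333, again the smallest possible. Over the 12 libraries of 3 lines the means were 74.1 ± 1.60% and 35.45 ± 1.13% (SD, n = 6), exact permutation p = 0.00216 and 0.00649 adjusted. Every H3K27ac library lay above every H3K9me3 library.

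Among regions, 77.4% of H3K27ac and 35.7% of H3K9me3 had a gene within 2500 bp, and 67.4% and 30.0% overlapped one. Far from genes H3K9me3 regions were the more frequent, with 19.4% of them (6640) more than 50000 bp from any gene, against 2.52% of H3K27ac regions (1283). The contrast was larger at gene starts than over gene extents. A listed start lay within 2500 bp of 33.2% of H3K27ac regions and 3.29% of H3K9me3 regions, and inside 13.3% and 0.668%. The median distance to a listed start was 9665 bp for H3K27ac and 50280 bp for H3K9me3.

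Of the 10 most enriched H3K27ac regions 7 overlapped a gene, beside 67.4% of all H3K27ac regions. Ranked by the mean fold of the replicates, the first 10 included regions at Dnmt3l, a cofactor of de novo DNA methylation (17.3 and 7.60), Brd2, a reader of acetylated histones (16.9 and 6.79), Mcm2, a subunit of the replicative helicase (16.0 and 7.80), and Sumo2, a small protein modifier (14.8 and 9.21). Ddx6 (18.3 and 6.79), Tial1 (20.4 and 4.38), Fbxl5 (16.7 and 8.21) and 2 loci with database symbols were also among them, and the first, at chr11:72280520-72286053 (20.3 and 5.29), lay 11964 bp from a gene. Replicate 1 was above replicate 2 in all 10, as it was for the median of all H3K27ac regions (5.55 and 3.79).

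The most enriched H3K9me3 regions were wider than the median of 938 bp of all H3K9me3 regions, which can in part follow from taking the highest peak of a region. The first 10 measured 3547 to 9092 bp, with folds of 9.97 to 14.2 in replicate 1 and 10.6 to 14.2 in replicate 2. Annotated genes overlapped 3 of them, beside 30.0% of all H3K9me3 regions, at Gm7735 (12.2 and 13.3), at Gpc6, a glypican gene (10.97 and 13.6), and at Slc4a4, which encodes a bicarbonate transporter (11.5 and 12.3). The one at chr4:5183482-5192573 (12.6 and 10.98) lay 238627 bp from the nearest gene. Median folds over all H3K9me3 regions were 4.42 and 4.57.

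Genes were then sorted by the regions within 2500 bp of their extent. Of 47042 annotated genes, 16489 (35.1%) had H3K27ac only, 3400 (7.23%) H3K9me3 only, 3357 (7.14%) both marks and 23796 (50.6%) neither. Of 20665 protein-coding genes the shares were 53.0%, 5.48%, 11.6% and 29.9%. Pseudogenes were split the other way round, 9.62% with H3K27ac only and 10.8% with H3K9me3 only. Genes with both marks were long, with a median length of 84.9 kb among protein-coding genes against 19.2 kb for H3K27ac only and 33.8 kb for H3K9me3 only. The share with both marks was 1.44% of protein-coding genes under 10 kb and 46.3% of those over 100 kb, so a gene extent can collect separate regions of the 2 marks. Of the 2397 protein-coding genes with both marks, 395 had a region in which the marks themselves overlapped.

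**Figure D3:**
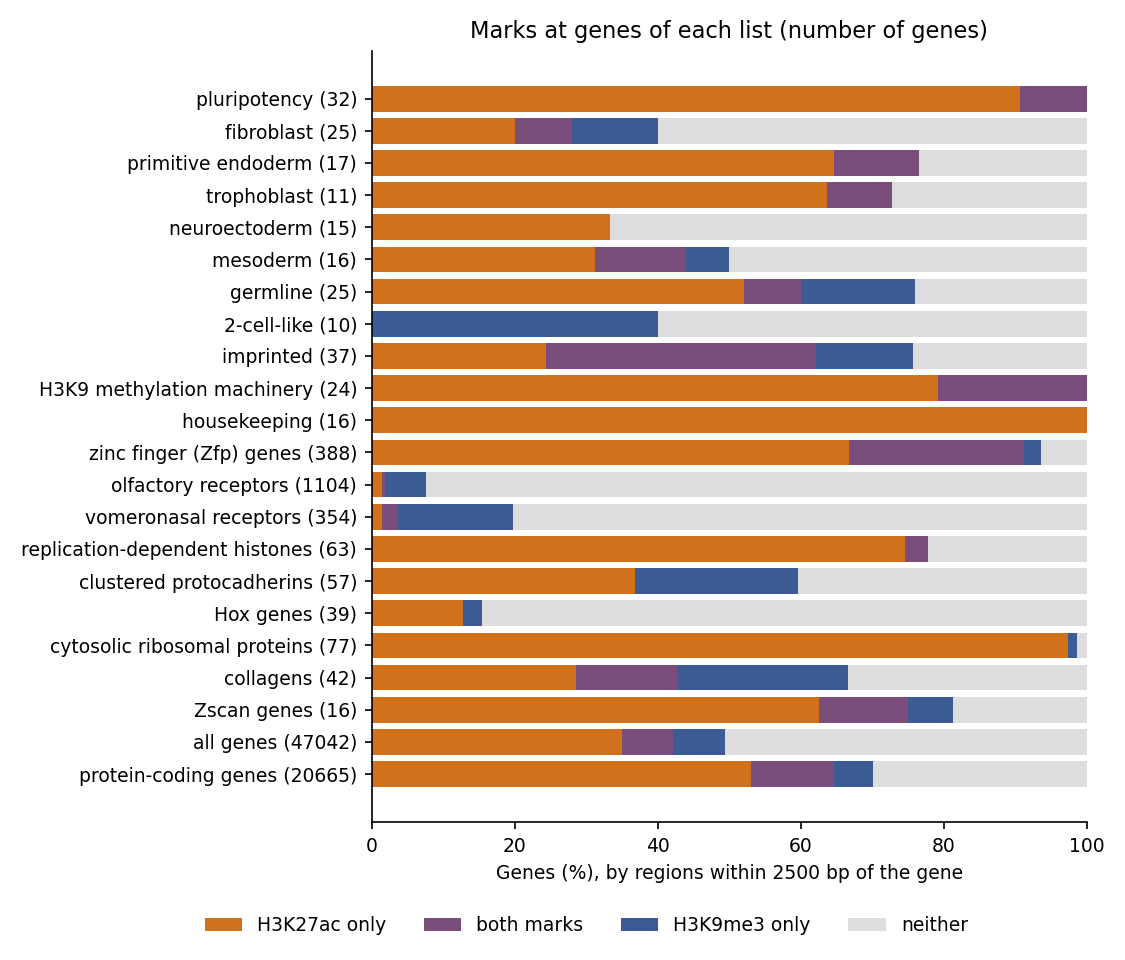
Percent of the genes of each list or family with H3K27ac only, both marks, H3K9me3 only or neither within 2500 bp of the gene (horizontal axis), with the number of genes in brackets; the lowest 2 bars give all genes and all protein-coding genes. Pluripotency, housekeeping and H3K9 methylation genes all carry H3K27ac (orange or purple), 2-cell-like genes have no H3K27ac, and 37.8% of imprinted genes have both marks (purple).

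Genes of the pluripotent state all carried H3K27ac, beside 64.6% of protein-coding genes. Of the 32 pluripotency genes found, 29 had H3K27ac only and 3 (Pou5f1, Esrrb and Rif1) had both marks. That is 9.4% with both, beside 11.6% of protein-coding genes. The median fold of the best H3K27ac region of the 32 was 7.24 against 6.01 for protein-coding genes with the mark. Tbx3, a T-box factor of the naive state, had 13.9 and 4.95 in replicates 1 and 2. Nodal, a signalling ligand, had 12.8 and 6.29, and Dppa4 had 12.8 and 5.69. Tfcp2l1, a naive-state factor, had 11.9 and 6.08 over a region of 11740 bp. Nanog had 10.0 and 5.29, and Sox2 9.62 and 3.98. The lowest folds of the list were at Gbx2 (4.53 and 2.68) and Lefty1 (4.87 and 3.39). Esrrb, a nuclear receptor gene with 20 H3K27ac regions, had an H3K9me3 region of 861 bp inside an H3K27ac region, at folds of 3.76 and 2.45, and lay in 1 of the 5 windows of 1 Mb with the most H3K27ac.

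Pou5f1 had an unusual profile for both marks. Its H3K9me3 region at chr17:35506021-35506533, 513 bp at the gene start, lay wholly inside an H3K27ac region of 6090 bp. The H3K9me3 fold was only 2.56 and 2.56, while the pileup (fragments over the summit) was 169 and 119, against medians of 28 and 23 over H3K9me3 regions. Pileup divided by fold, a measure of the local background, was thus 66.0 and 46.5 at Pou5f1 and 5.82 and 4.57 in the median region, and only 28 and 34 of the 34205 H3K9me3 regions were at or above it. Myc had the same feature in its H3K9me3 region of 737 bp, with folds of 2.51 and 2.67, pileups of 75 and 61, and a pileup divided by fold of 5.13 and 5.00 times the median. Myc is one of the transduced factors of C2, and reads from its exons may derive from the transduced cDNA or from the gene, which these files do not separate. Oct4 was not transduced in C2, but Pou5f1 has processed copies in the genome and these cells carry an Oct4-MerCreMer reporter, so its values are uncertain too. The inputs used for C2 are also those of OSKM, which was given Oct4, and the part of this in the local background was not tested. Klf4 and Sox2, transduced as well, had H3K27ac only.

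Housekeeping genes and the enzymes of H3K9 methylation looked like pluripotency genes. Among all protein-coding genes, 64.6% had H3K27ac, 53.0% had it without H3K9me3 and 11.6% had both marks. All 16 housekeeping genes had H3K27ac only, Actb with the highest folds (15.2 and 7.37). All 24 genes of the H3K9 methylation machinery found had H3K27ac, 19 of them alone, including Trim28, the corepressor of KRAB zinc finger proteins (9.96 and 3.47), and Setdb1 (7.86 and 4.61). The 5 with H3K9me3 as well were Pphln1, a HUSH subunit (5.61 and 9.73), Atf7ip, the partner of SETDB1 (3.85 and 4.98), Cbx3, an HP1 protein (4.20 and 3.90), the demethylase gene Kdm4c (3.46 and 4.25) and the remodeller gene Smarcad1 (3.17 and 4.67), given as H3K9me3 folds. At Atf7ip the marks overlapped by 618 bp, 502 bp from a listed start. Cytosolic ribosomal protein genes had H3K27ac only in 75 of 77 cases.

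Fibroblast genes, which mark the cells of origin, were mostly bare. Of 25, 15 had neither mark, 5 had H3K27ac only (Fn1, Vim, Loxl1, Zeb2 and Snai1), 3 had H3K9me3 only and 2 had both (Zeb1 and Fbn1). The 3 were Col1a1, a collagen (3.81 and 3.92), Lum, a matrix proteoglycan (4.54 and 2.70), and Pdgfrb, a growth factor receptor (4.50 and 5.81), which had 1 H3K9me3 region each, of 566 to 841 bp. That is 20% of the list with any H3K9me3, beside 17.1% of protein-coding genes. In the collagen family, 10 of 42 genes (23.8%) had H3K9me3 only and 12 (28.6%) H3K27ac only, beside 5.48% and 53.0% of protein-coding genes. The median collagen gene was 110 kb long, and 10.8% of protein-coding genes over 100 kb had H3K9me3 only.

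Genes of other early lineages are set beside protein-coding genes, of which 64.6% had H3K27ac and 29.9% neither mark. Primitive endoderm genes had H3K27ac in 13 of 17 cases, Lama1, a basement membrane laminin, with the highest folds among those without H3K9me3 (12.9 and 4.17), and Cubn and Lamc1 had both marks. Of 11 trophoblast genes 8 had H3K27ac, including Gata3 (10.7 and 6.97), and Krt8 had both marks. Neuroectoderm genes had no H3K9me3, and 10 of 15 had neither mark. Otx2, which is also expressed on leaving the naive state, had the highest folds of those 15 (10.8 and 4.86). Of 16 mesoderm genes 8 had neither mark, Wnt3 and Wnt3a had both and Evx1 had H3K9me3 only. Hox genes had neither mark in 33 of 39 cases.

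Germline and 2-cell-like genes included several with H3K9me3 only. Of 25 germline genes 13 had H3K27ac only, 4 H3K9me3 only and 2 both. These are 52%, 16% and 8%, beside 53.0%, 5.48% and 11.6% of protein-coding genes. The highest H3K27ac folds after Dnmt3l were at Piwil2, a PIWI protein gene (12.6 and 6.08), and Dazl, an RNA-binding protein gene (10.7 and 7.27). The 2 with both were Sycp1 and Fkbp6, at which the marks overlapped by 320 and 346 bp. Mov10l1, a piRNA helicase gene with H3K9me3 only, had 4 H3K9me3 regions, the best of 4555 bp at folds of 7.36 and 9.90. Asz1 had 5.54 and 4.45, Tdrkh 3.07 and 3.20, and Slc25a31, whose promoter is shown above, 2.60 and 3.95. Any H3K27ac was found at 64.6% of protein-coding genes and any H3K9me3 at 17.1%. None of the 10 genes of the 2-cell-like list had H3K27ac and 4 had H3K9me3: Zfp352 (5.19 and 6.03), Tcstv3 (6.66 and 4.35), Gm2022 (3.81 and 4.25) and Duxf3 (3.10 and 2.74). Several of these belong to multicopy families, where reads can be shared between copies, and Duxf3 had pileups of 109 and 99. Among chemosensory receptors, 57 of 354 vomeronasal genes and 63 of 1104 olfactory genes had H3K9me3 only, and 5 and 16 had H3K27ac only. As shares with H3K9me3 only, these are 16.1% and 5.71%, beside 7.23% of all genes and 5.48% of protein-coding genes.

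Imprinted genes often carried both marks. Of 37, 14 had both marks (37.8%, beside 11.6% of protein-coding genes and 10.5% of those of 20 to 50 kb, the length class of the median imprinted gene), 9 had H3K27ac only, 5 H3K9me3 only and 9 neither. Host and antisense pairs such as Gnas and Gnasas1, Igf2r and Airn, or Kcnq1 and Kcnq1ot1 share their regions, so the 14 are not independent. The marks overlapped in the same region at 5 of the 37: Mest, Gnas, Gnasas1, Ddc and Sfmbt2. At Mest, a paternally expressed gene, the H3K9me3 region chr6:30738803-30739391 (3.43 and 3.20) lay inside an H3K27ac region (6.92 and 3.54) that lay 33 bp from a listed start. At Gnas, H3K9me3 at chr2:174294246-174295659 (3.04 and 2.89) overlapped H3K27ac (9.49 and 5.45) by 1274 bp.

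At Ddc, next to Grb10, the best H3K27ac region (12.2 and 5.51) overlapped an H3K9me3 region (2.79 and 4.43) by 546 bp, and another pair of regions overlapped by 558 bp. The best H3K9me3 region of Ddc (7.02 and 6.74) lay apart from these. Of the 14 genes, the other 9 carried the marks at separate places. Snrpn had 7.85 and 4.45 for H3K27ac and 6.402 and 4.95 for H3K9me3, while Kcnq1 had 11.9 and 4.44 against 5.02 and 8.04. Peg10 had 7.40 and 4.93 for H3K27ac, in a region it shares with Sgce, and 5.36 and 2.64 for H3K9me3, while Sgce had 3.70 and 6.03 for H3K9me3. The best H3K9me3 region of Inpp5f measured 6332 bp, with 9.66 and 7.02. Igf2r and Airn shared an H3K9me3 region at chr17:12740891-12741638 (4.65 and 5.48), which overlaps a listed Airn promoter. With H3K9me3 only, Nnat had a region of 4822 bp (6.48 and 7.62), H19 one of 3271 bp (7.19 and 3.96), Igf2 one of 1525 bp (5.54 and 5.17) and Plagl1 one of 1196 bp (5.30 and 5.38) over the CpG-rich promoter shown above. The libraries do not tell the parental alleles apart.

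In zinc finger genes with both marks, H3K27ac lay mostly near the gene start and H3K9me3 more often near the end. Of 388 genes named Zfp, 259 had H3K27ac only, 95 both marks and 9 H3K9me3 only, so 24.5% had both, beside 11.6% of protein-coding genes, at a median length of 17.98 kb. For the 77 Zfp genes with both marks and a listed strand, the best H3K27ac region lay within 2500 bp of the gene start in 75.3% and of the gene end in 2.60%. The best H3K9me3 region lay within 2500 bp of the start in 7.79% and of the end in 44.2%. In the 1835 other protein-coding genes with both marks, the H3K9me3 region lay near the end in 14.9% and near the start in 8.77%. H3K9me3 was downstream of H3K27ac in 67 of 77 Zfp genes (87.0%) and in 67.8% of the others, whose median length was 85.2 kb against 26.1 kb. In those others the best H3K27ac region lay within 2500 bp of the start in 48.6%. The part of this in the downstream shares was not tested.

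**Figure D4:**
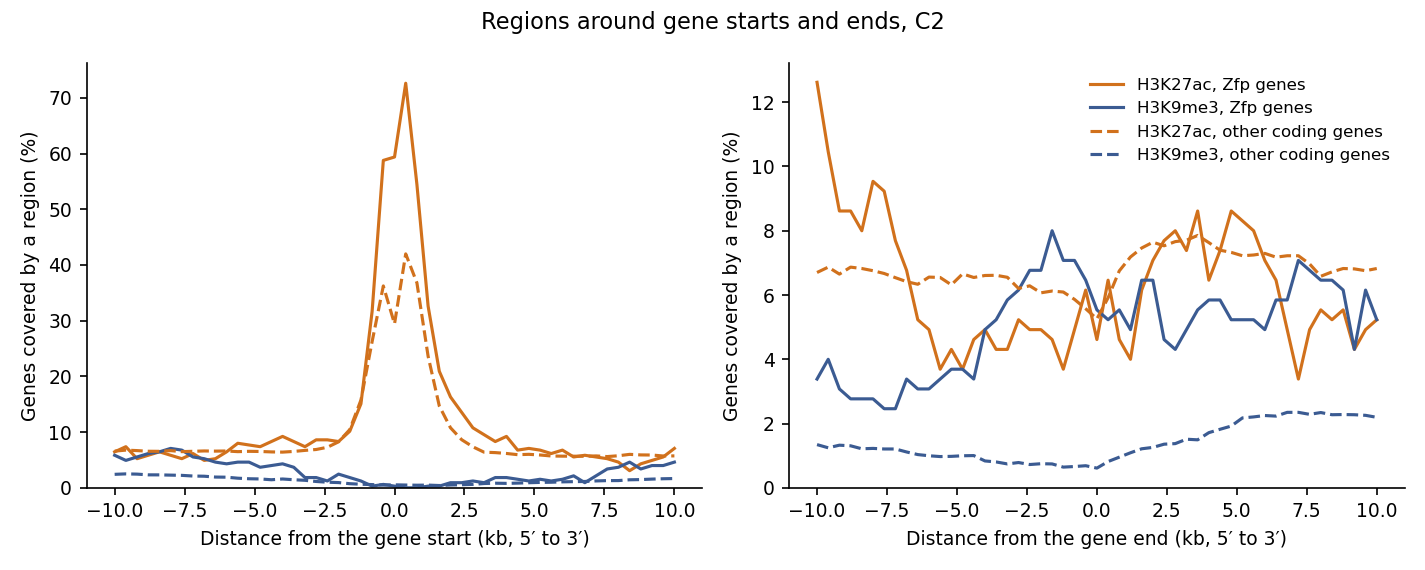
Percent of genes covered by a C2 region of each mark at each distance in kb from the gene start (left) and gene end (right), read 5′ to 3′ in steps of 400 bp, for 325 Zfp genes (solid) and 16132 other protein-coding genes (dashed). H3K27ac peaks just after the start in both sets, and H3K9me3 is higher in Zfp genes before the end, 8% against 0.744% at 1.6 kb upstream of it, and also above the other genes on both sides of the gene.

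The start of Zfp genes was a point of high H3K27ac. At 400 bp after the start, 236 of the 325 Zfp genes (72.6%) were covered by H3K27ac, beside 42.0% of other protein-coding genes, and H3K9me3 covered none of the 325 and 0.502% of the others. At 1600 bp before the gene end, 26 Zfp genes (8%) were covered by H3K9me3 and 15 (4.62%) by H3K27ac. In the other protein-coding genes the order was the reverse, 0.744% and 6.12%. Zfp genes are a family with repeated finger sequences near the gene end, and how reads from such repeats were placed is not given in the sources used here.

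Few regions of either mark overlapped the other, and both marks cover little of the genome. H3K9me3 overlapped 1511 H3K27ac regions (2.97%), and H3K27ac overlapped 1538 H3K9me3 regions (4.50%), in 1581 pairs with a median overlap of 392 bp. In all, 741 kb were shared, 1.04% of H3K27ac bases and 1.46% of H3K9me3 bases. H3K9me3 regions covered 2.06% and H3K27ac regions 2.89% of these chromosomes, measured to the last annotated gene. How much overlap random placement would give was not tested. In 382 pairs (24.2%) one region lay inside the other. Counted by library, 3.23% and 1.74% of H3K27ac peaks and 2.53% and 5.35% of H3K9me3 peaks were overlapped by a region of the other mark. These ranges overlap, and the difference between the marks (1.455 percentage points, exact permutation p = 0.667) was smaller than the spread between the H3K9me3 libraries. Over the 3 lines the exact permutation p was 0.236, and 0.236 adjusted.

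Regions with both marks differed from the rest of the H3K27ac regions in place more than in strength. An annotated gene overlapped 38.8% of the 1511, against 68.3% of the other 49337, and 16.7% lay more than 50000 bp from a gene, against 2.09%. A listed gene start lay within 2500 bp of 6.80%, against 34.0%. Their H3K27ac folds had medians of 6.41 and 3.76 in replicates 1 and 2, against 5.53 and 3.79, so replicate 1 was higher and replicate 2 was not. On the H3K9me3 side, regions with both marks had lower folds, 3.70 and 4.27 against 4.50 and 4.60, and fewer reached 5000 bp, 1.69% against 4.82%. Their distance to genes was nearer to that of other H3K9me3 regions: 37.1% overlapped a gene, against 29.7%, and 17.1% were more than 50000 bp from one, against 19.5%.

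Among the 10 strongest regions with both marks, most pairs shared only part of their extent. Ranked by the smaller mean fold of the 2 marks, the first was at chr14:31916910-31919352, 1443 bp from Gm36164, where an H3K27ac region of 2443 bp (9.46 and 6.13) lay inside an H3K9me3 region of 8821 bp (7.71 and 10.2). In Nmnat2, a gene of NAD synthesis in neurons, the marks overlapped by 1305 bp, with 8.86 and 5.48 for H3K27ac and 7.88 and 5.78 for H3K9me3. In Ctnna3 they shared 20 bp, with 8.49 and 5.69 against 9.52 and 6.46. Pcmtd1 was also among the 10, and the other 7 regions overlapped no gene, while 38.8% of all H3K27ac regions with both marks overlapped one. The shared stretch measured 18 to 815 bp in 7 of the 10 and 1305 to 2443 bp in the other 3. The region nearest to Far2, 138402 bp away, was the only one of the 10 with a peak in both Empty HA libraries.

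Over windows of 1 Mb the amounts of the marks were only weakly related. Across the 2435 windows with a region or a gene, the H3K27ac bases and the H3K9me3 bases had a Spearman's rho of -0.11 and a Pearson's r of -0.09, given as a description, since neighbouring windows and all counts within a library are related. H3K27ac followed gene number (rho 0.69) and H3K9me3 did not (rho -0.02). In the 609 windows with the fewest genes (0 to 8), the median was 2.92 kb of H3K27ac and 18.4 kb of H3K9me3, and in the 609 with the most genes (26 to 214) it was 53.7 kb and 17.8 kb. Only 23 windows had no region of either mark.

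**Figure D5:**
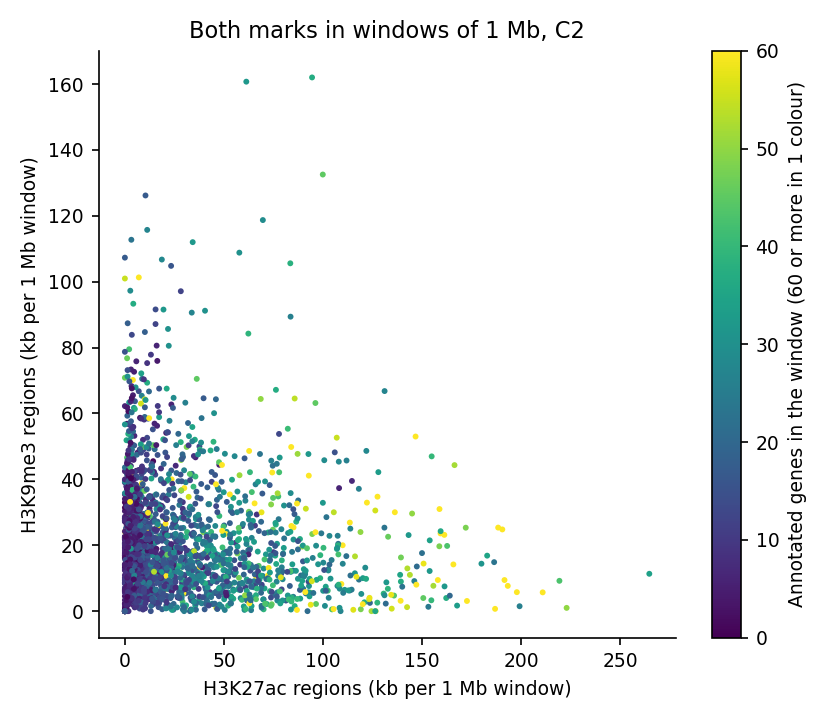
Bases in H3K27ac regions (horizontal, kb) and in H3K9me3 regions (vertical, kb) in each of 2435 windows of 1 Mb of the C2 line, coloured by the number of annotated genes. Most points lie near the origin or along 1 axis, and the window richest in H3K9me3 (162 kb) also held 94.5 kb of H3K27ac.

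The windows with the most H3K27ac had little H3K9me3, but the reverse did not hold. The 5 richest in H3K27ac held 199 to 265 kb of it and 0.994 to 11.3 kb of H3K9me3. The first, chr11:117000000-117999999, includes Socs3, a feedback inhibitor of LIF signalling, and Birc5. The fifth, chr12:86000000-86999999, includes Esrrb. The 5 windows richest in H3K9me3 held 119 to 162 kb of it, and 4 of them also held 61.3 to 99.9 kb of H3K27ac, above the median of 14.1 kb. The first, chr4:147000000-147999999, had 162 kb of H3K9me3 in 87 regions and 94.5 kb of H3K27ac in 64 regions, and 9 of its 16 protein-coding genes are named Zfp, among them Zfp978, Zfp982 and Zfp985. Of those 64 H3K27ac regions 8 overlapped H3K9me3. The next window upstream, chr4:146000000-146999999, also ranked among the 5, and all 5 of its protein-coding genes are Zfp genes. The window chr12:20000000-20999999 had 126 kb of H3K9me3 and 10.4 kb of H3K27ac.

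Among chromosomes the balance of the marks varied. There were 0.304 H3K9me3 regions per H3K27ac region on chromosome 11 and 0.983 on chromosome 3. Chromosome 11 had the highest density of H3K27ac, 34.8 regions per Mb. Chromosome 8 had the lowest, 11.97 per Mb, and a low density of H3K9me3 too, 10.2 per Mb. It held 3.93% and 2.83% of H3K27ac peaks in the C2 replicates against 5.03% to 5.62% in the C3 and OSKM libraries, and 4.00% and 3.90% of H3K9me3 peaks against 4.605% to 5.56%. Without chromosome 8, the overlapped shares were 2.99% of H3K27ac and 4.56% of H3K9me3 regions, and the shares with a gene within 2500 bp were 77.3% and 35.75%.

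Peaks of the HA tag lay at regions with both marks far more often than at regions with H3K27ac alone, and did so in Empty cells too. In C2 cells at day 20, 9.60% and 29.2% of the 1511 H3K27ac regions with both marks had an HA peak (replicates 1 and 2), against 0.359% and 1.35% of the other H3K27ac regions. In Empty cells the shares were 4.30% and 17.3%, against 0.221% and 0.667%. H3K9me3 regions with both marks had 14.5% and 33.5% in C2 and 6.70% and 24.3% in Empty, and other H3K9me3 regions had 6.18% and 14.5% in C2 and 4.70% and 9.03% in Empty. The C2 shares were above the Empty shares of the same replicate number in all of these sets, while the second Empty library was above the first C2 library in all of them. The HA libraries were shallow and uneven, with 2506011 and 3896935 tags kept and 11017 and 39617 peaks in C2, and 1707437 and 1629753 tags and 9492 and 20022 peaks in Empty. A fraction of 0.92 to 0.94 of their tags had been removed as redundant, and the part of depth in these shares was not tested. A peak in both Empty libraries was found at 1.92% of H3K27ac regions with both marks and at 0.0568% of the others. The part of such antibody background in the overlap was not tested beyond leaving those regions out, after which 2.83% of H3K27ac and 4.39% of H3K9me3 regions overlapped the other mark.

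In the other lines, most regions with both marks in C2 had H3K27ac, while H3K9me3 was found at fewer of them in C3 than in OSKM. Of the 1511 H3K27ac regions, 98.3% had an H3K27ac region in C3 and 91.99% in OSKM. An H3K9me3 region was found at 43.0% of them in C3 and at 92.1% in OSKM. Of the H3K9me3 regions without H3K27ac, 83.65% had an H3K9me3 region in C3 and 96.9% in OSKM. C2 and OSKM were called against the same inputs and C3 against others, so line and input cannot be told apart here. Overlap with the other mark was lower per library in C2 than in the other lines for H3K27ac (3.42% to 8.46% in C3 and OSKM) and for H3K9me3 (7.499% to 9.43%), with no overlap between the libraries of C2 and those of the other lines. Each of these 4 comparisons of 2 against 2 libraries had an exact permutation p of 0.333, the smallest possible. C2 also had the fewest regions of the 2 marks, 85053 against 104098 in C3 and 111738 in OSKM. With fewer regions there is less to overlap, and the part of this in the lower shares was not tested.

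The authors' own comparison of the lines over all peak regions called at most 5.66% of regions with both marks in any 1 direction. H3K9me3 was called higher in C2 at a larger share of them than of all regions. For H3K27ac that share was smaller. Since the members were chosen by their peaks in C2, these values are a description. For H3K9me3 against C3, the authors' deposited table called 43 of the 1479 table regions at H3K9me3 regions with both marks higher in C2 (2.91%, at an FDR under 0.05), beside 0.555% of all its regions, and 1 lower (0.0676%, beside 0.21%). Other C2 H3K9me3 regions were higher in 0.223% in the authors' deposited table. For H3K9me3 against OSKM, the authors' deposited table called 3.79% higher, beside 1.88%, and 2.096% lower, beside 3.16%. For H3K27ac against C3, it was 1 of 1449 in each direction (0.069%) in the authors' deposited table, beside 1.34% higher and 0.483% lower. For H3K27ac against OSKM, the authors' deposited table called 4.21% higher, beside 9.34%, and 5.66% lower, beside 4.07%.

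Values at some named genes that carry both marks, in the same or in separate regions, are given next. In the authors' deposited table, the H3K9me3 region at Grb10 was higher in C2 than in C3 by 1.32 (log2, FDR 0.0370) and than in OSKM by 1.51 (FDR 2.63e-04). The H3K9me3 region shared by Igf2r and Airn was higher in C2 than in OSKM by 8.45 (log2, FDR 7.94e-45) in the authors' deposited table and differed from C3 by 0.22 (FDR 0.963). The values per library behind the difference of 8.45 were not used here, so its size may rest on very low values in OSKM. At Pou5f1, the H3K9me3 differences were 0.26 from C3 (FDR 0.963) and -0.67 from OSKM (FDR 0.160) in the authors' deposited table. The H3K27ac differences at Pou5f1 were -0.66 (FDR 0.937) and -1.09 (FDR 0.0965) in the authors' deposited table. OSKM was given Oct4, and reads from its transduced cDNA cannot be told apart here from those of the gene. Mest was not called against either line in the authors' deposited table, with H3K9me3 differences of -0.05 (FDR 0.973) and -0.52 (FDR 0.462). The H3K9me3 regions at Peg10, Snrpn, Esrrb, Rif1, Myc and Inpp5f were not called against either line either.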

How the data were processed

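Peak files of 16 libraries and 4 region tables were used as deposited. Per the submitters' processing notes, CASAVA 1.8.2, Bowtie2 2.2.5, SAMtools 1.3, DiffBind 1.16.2 and the mm10 genome were used. Per the file headers, the authors called peaks in each library against 1 input with MACS 2.1.0.20150731 (histone marks) or 2.1.1.20160309 (HA), at a q-value of 0.01, tags of 51 bases at most 1 tag per position and broad calling off. In the deposited peak files, pileup is a signal, fold enrichment a ratio over the local background and significance a −log10 q-value. The authors' deposited region tables give a log2 fold change and an FDR (an adjusted p-value). Their 24 columns of values per library were not used.

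Here, peaks of both libraries of a mark that overlapped by at least 1 base were merged, and a gene (RefSeq, GRCm38.p6, the same assembly as mm10) was assigned within 2500 bp, with SciPy 1.17.1 for the tests, matplotlib 3.10.9 for the figures, and pandas 2.3.3 and NumPy 2.4.6 under Python 3.11.15. The interval steps were tested on simulated data. A gene takes its region of highest mean fold. Of 244 list names 232 were found on these chromosomes. Libraries were compared with exact permutation tests. The regions described, the 12 gene lists and the 9 families were chosen with earlier results of these data known. Listed promoters, of which none on chromosome 18 were used, run from 250 bases before to 50 after a gene start. Names were drawn from the 10 regions highest in fold and the 10 widest of each mark, the 10 strongest regions with both marks, the 5 richest windows of 1 Mb, and per list up to 6 members with both marks and the 4 most enriched; not all are named, and other names were chosen after their values were seen. Same-numbered libraries of the 2 marks share an input library, which is the only pairing the file headers give. Alternative region, gene and overlap rules were tried.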

Additional observations from a re-analysis of the deposited data

How the results depend on the processing

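Of 140 values recomputed under other settings, 100 moved by less than the spread between the C2 libraries (or, for counts, by less than 1.5 times) and 40 moved by more. There was no change of sign, which only the differences between the marks could show. Some values could not move by construction, such as H3K9me3 widths when an H3K27ac library was left out. With the intersection of the peaks in place of their union, the median width was 451 bp for H3K27ac and 335 bp for H3K9me3, the overlapped shares were 1.02% and 1.45%, and H3K9me3 had 53115 regions with 33.9% near a gene. With peaks within 1000 bp joined, there were 31080 H3K27ac regions, widths of 2106 and 1645 bp, overlapped shares of 6.95% and 8.75%, and 37.3% of H3K9me3 regions near a gene. At a −log10 q of at least 5 the widths were 1162 and 1156 bp. A gene within 1000 bp was found for 74.1% and 32.3% of regions, within 10000 bp for 87.3% and 52.0%, and a protein-coding gene within 2500 bp for 66.65% and 22.5%. Within 10000 bp, 6083 genes had H3K9me3 only and 6070 both marks, and of protein-coding genes 10949 had H3K27ac only and 1133 H3K9me3 only. Counting an overlap only from 50% of the shorter region gave 1.62% and 2.48%. A listed gene start in place of the gene extent, an alternative chosen after seeing the data like that without Empty HA regions, gave 33.2% and 3.29%. The cause of these shifts was not tested beyond what each setting changes by construction.

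Each library was left out in turn, so that peaks of 1 library stood for its mark while the other mark kept both. This gave 50848 to 114119 H3K27ac and 34205 to 64440 H3K9me3 regions, with widths of 486 to 1050 bp and 396 to 938 bp. The 50848 and 34205 regions, at 1050 and 938 bp, are the unchanged values, found when a library of the other mark was left out. With 1 library for the mark, there were 75329 and 114119 H3K27ac peaks, with median widths of 486 and 534 bp. For H3K9me3 there were 59699 and 64440 peaks, with median widths of 446 and 396 bp. A gene lay near 74.1% to 77.4% of H3K27ac and 34.65% to 35.7% of H3K9me3 regions, 77.4% and 35.7% again being the unchanged values. With 1 library for the mark, these shares were 76.7% and 74.1% for H3K27ac and 35.5% and 34.65% for H3K9me3. The overlapped shares ranged from 1.74% to 5.53% for H3K27ac and from 2.53% to 9.73% for H3K9me3. The highest H3K27ac share, 5.53%, was without H3K9me3 replicate 1, the lowest, 1.74%, without H3K27ac replicate 1, and the highest H3K9me3 share, 9.73%, without H3K27ac replicate 2. The differences between the marks (H3K9me3 minus H3K27ac) ranged from -114 to -64 bp in width, from -41.6 to -39.0 percentage points near a gene, and from 0.0441 to 2.87 percentage points in overlap. With the replicate number as a replicate block, these differences were -89 bp, -40.3 and 1.455 percentage points, with exact sign-flip permutation p of 0.5, 0.5 and 1, 0.5 being the smallest that 2 pairs allow. Within the pairs, the overlap difference had opposite signs, -0.702 percentage points in replicate 1 and 3.61 in replicate 2. Peak calls depend on depth, so where a peak is missing, an absent mark cannot be told apart from one not detectable at this depth.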
